A study of Mus musculus with 155 samples.

Results

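Retinoic acid (RA)-treated mouse embryonic stem cells (ESCs) that express H3.3K27M were compared with undifferentiated ESCs of the same line, to ask which ESC genes stayed on and which RA genes were induced in the mutant line. The comparison holds 10 of the 42 RNA-seq libraries of the series, chosen by the labels alone, with 2 RA-treated and 8 undifferentiated libraries. All 10 libraries came from KH2, a mouse ESC line with a doxycycline (Dox)-inducible locus, which here expressed a single extra copy of H3.3K27M with a SNAP and HA tag. H3.3K27M is the histone H3.3 variant with methionine in place of lysine at residue 27, so each cell also kept its own H3.3 genes. The undifferentiated cells were grown on gelatin with leukemia inhibitory factor (LIF) and the 2i inhibitors and were collected 4, 8, 24 or 72 h after Dox, with 2 replicates at each time, which were compared as 1 group of 8 libraries. For RA treatment, LIF and 2i were left out and RA was added at 1 μM for 4 days. The paper describes Dox 24 h after the start of RA and collection 72 h after Dox, and gives no such layout for collection at 24 h. RA-treated cells were collected 24 h and 72 h after Dox, with 1 library at each time. How long the 24 h library had been in RA is not stated, and the growth note of the 72 h library names ESC media alone, while its source label gives the RA treatment. No library of this line was made without Dox, the line came from selected clones, and a potential duplication of chromosome 8 was found in all clones of the study. WT-H3.3 and H3.3K27L libraries of the same layout (10 each, also with Dox) were used only to test whether the RA response of the mutant line differed. H3.3K27L carries leucine at this residue and does not inhibit PRC2.

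Mouse ESCs are held in a naive state by a network of transcription factors, among them Nanog, Esrrb, Klf4 and Tfcp2l1, around the core factors Pou5f1 and Sox2, and LIF and 2i maintain this network. RA is a vitamin A derivative that enters the nucleus and binds RA receptors, which switch on target genes such as the RA-degrading Cyp26 enzymes and the Hox genes that mark position along the body axis. In ESCs, RA without LIF leads out of the naive state, towards neural cells and, depending on culture, towards extraembryonic endoderm. H3.3K27M inhibits PRC2, the complex that methylates H3 at lysine 27 and keeps many developmental genes silent.

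Expression is given as CPM, the counts of a gene scaled to a common library total with TMM factors, and levels were compared between libraries within a gene. Library totals ran from 6590661 to 11949871 counts in undifferentiated cells, and were 22269533 in the RA 24 h library and 3105371 in the RA 72 h library. The methods name 2 library kits, QuantSeq 3′ and KAPA, and which library was made with which kit is not given in the sources used here. Gene length here means the length of the exons of a gene joined together, without introns. In the RA 24 h library the median log2 ratio to undifferentiated cells rose with gene length, from -0.46 in the shortest to 0.45 in the longest of 5 equal groups of genes, against -0.29 to -0.05 in the RA 72 h library and -0.36 to 0.22 among undifferentiated libraries. With offsets for gene length, 13015 genes of known length were tested in place of 14062, and 2947 were called higher and 2640 lower. These held 85.7% and 82.5% of the genes called in the comparison below, with 0 called in the opposite direction. RA treatment, the absence of LIF and 2i, and any change of kit cannot be told apart by these libraries, nor can RA time and Dox time. Since these are bulk samples, fewer cells of a type and less RNA per cell cannot be told apart either.

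A large part of the transcriptome differed between RA-treated and undifferentiated H3.3K27M cells. A gene was called when its p from edgeR's quasi-likelihood test, adjusted by Benjamini-Hochberg, was below 0.05 and it differed more than 2-fold. Of 14062 genes tested, 5753 (40.9%) were called. In RA-treated cells 3225 of the genes tested (22.9%) were higher and 2528 (18.0%) lower. These shares are the background for every count below. A gene could pass the filter on low counts through 1 state alone, so the shares called in a list depend in part on that filter. The lists were chosen with earlier results of these data known, so their counts beside the background are a description and no independent test. Both RA libraries lay above all 8 undifferentiated ones for 23.2% of the genes, and below all of them for 23.6%. Both RA libraries were more than 2-fold above the undifferentiated mean for 2092 genes (14.9%) and less than 0.5 times that mean for 1898 genes (13.5%). The 2 RA libraries stood as the replicates of the test, so its spread holds the difference between the Dox times.

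The H3.3 genes were looked at first, since the mutant is itself an H3.3. H3f3b was at 857 CPM in the RA 24 h library and 1803 CPM in the RA 72 h library, against 455 to 812 CPM in the 8 undifferentiated libraries (median 559), and was called higher (log2 fold change 1.20, SE 0.26, adjusted p = 0.00176). H3f3a was at 110 and 63.5 CPM, within the range of 70.8 to 144 CPM of undifferentiated cells at 24 h and below it at 72 h, and was not called (log2 fold change -0.34, SE 0.27). Gene counts do not separate the introduced H3.3K27M from the cell's own H3.3 transcripts, so these values do not check that Dox worked. Of 10 genes tested for H3.3 and its chaperones, the other gene called was Ubn1, a subunit of the HIRA deposition complex, at 122 and 312 CPM against 50.1 to 67.1.

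The naive pluripotency genes were lower after RA without exception among those tested. Of 22 listed genes, 20 were tested and all 20 were called lower, against 18.0% of all genes, with a median log2 fold change of -5.90 (0.03 over all genes). Nanog (chr6:122657507-122664651 in mm9), the homeobox factor that stabilises self-renewal, was at 1.23 and 2.31 CPM in the RA libraries, and at 1000, 1280 and 1650 CPM in the lowest, median and highest undifferentiated library. Both RA libraries lay far below every undifferentiated one, and the log2 fold change was -9.74 (SE 0.45, adjusted p = 4.22e-09). Esrrb, an orphan nuclear receptor of the naive network, fell from 608 to 897 CPM to 3.52 and 1.32 CPM, and Tfcp2l1, a target of LIF signalling, fell from 705 to 1540 CPM to 14.4 and 12.8 CPM. Prdm14, which represses differentiation genes in naive cells, had no count in either RA library against 24.0 to 56.1 CPM before, so it was at least 313-fold lower. Fgf4, the growth factor secreted by ESCs, had 0.32 CPM at 24 h and none at 72 h against 245 to 453 CPM. The 2 listed genes on chromosome 8, which was left out of the test, were also lower where that chromosome was kept, with log2 fold changes of -6.38 for Klf2 and -5.30 for Zfp42 (Rex1).

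A few naive genes kept a part of their ESC level. Klf4, a Krüppel-like factor downstream of LIF, was at 51.1 and 58.6 CPM against 257, 397 and 554 CPM in the lowest, median and highest undifferentiated library (log2 fold change -2.88, SE 0.32, adjusted p = 7.85e-06). Its relative Klf5 was at 108 and 154 CPM against 263 to 373, and Tbx3, a T-box factor of the same network, was at 119 and 78.7 CPM against 189 to 353. These 2 had the smallest falls of the list, with log2 fold changes of -1.21 and -1.20, and neither RA library overlapped the undifferentiated ones. Fbxo15 was at 11.9 and 67.5 CPM against 369 to 557. Zfp57, a zinc finger protein that keeps methylation at imprinted loci, differed between the RA libraries, with 93.1 CPM at 24 h and 0.99 CPM at 72 h against 192 to 477 CPM. A gene was counted as staying on where both RA libraries held at least 0.5 times the CPM of the lowest undifferentiated library, which 67.2% of all genes and 73.1% of the genes with at least 10 CPM in undifferentiated cells did. Of the 20 naive genes only Dppa2 did, at 22.9 and 17.5 CPM against 33.3 to 137, and it was also called lower (log2 fold change -2.01, adjusted p = 0.00486). The summed level of the 20 genes was 443 and 410 CPM against 6230 to 7900 CPM.

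**Figure D1:**
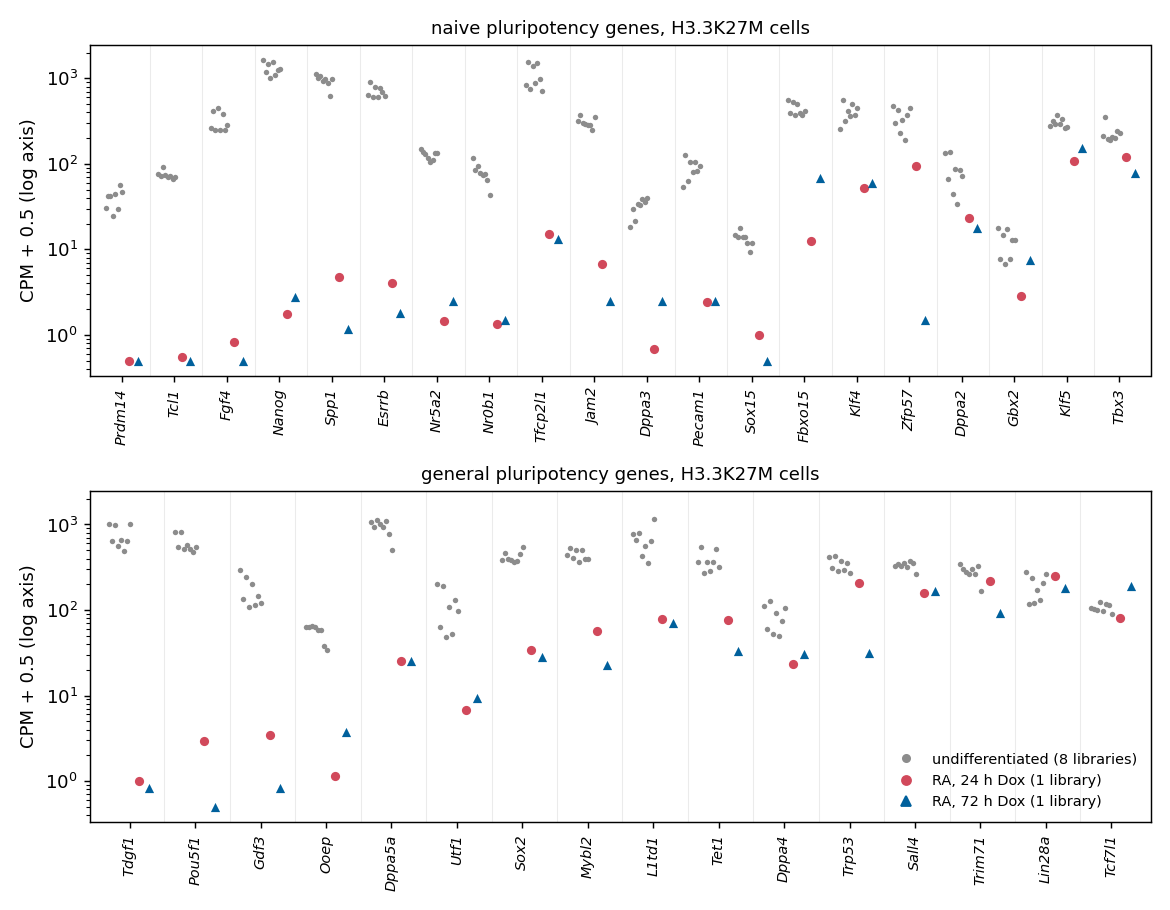
CPM + 0.5 (log axis) of the naive and general pluripotency genes reported in H3.3K27M cells, ordered by log2 fold change. Grey points are the 8 undifferentiated libraries, the red circle is the RA 24 h library and the blue triangle the RA 72 h library. The RA points lie below the grey points for 19 of 20 naive genes, and at Lin28a they lie among them.

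General pluripotency genes, which are shared by naive and later pluripotent cells, were mostly lower after RA, and some stayed on. All 17 listed genes were tested, 14 were called lower and none higher, with a median log2 fold change of -3.19. Pou5f1 (Oct4), the core POU factor, was at 2.47 CPM in the RA 24 h library, had no count in the RA 72 h library, and was at 474, 543 and 814 CPM in the lowest, median and highest undifferentiated library (log2 fold change -8.40, SE 0.65, adjusted p = 2.91e-07). Sox2, its HMG-box partner, was at 33.5 and 27.7 CPM against 368, 389 and 552 CPM (log2 fold change -3.78, SE 0.27, adjusted p = 1.33e-07). Both genes were lower in each RA library than in any undifferentiated one, and Sox2 kept a measurable level in both. Tdgf1, a Nodal co-receptor, was at 0.50 and 0.33 CPM against 488 to 1010 CPM. Dppa4, the partner of Dppa2 at chromatin, was at 22.9 and 29.96 CPM against 49.4 to 126.

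Of these 17 genes 5 stayed on by the measure above, against 67.2% of all genes and 73.1% of those with at least 10 CPM, and 4 of them, Lin28a, Trim71, Tcf7l1 and Sall4, are described here. Lin28a, the RNA-binding protein that blocks let-7 maturation, was at 250 and 182 CPM against 116, 190 and 281 CPM, inside the undifferentiated range, and was not called (log2 fold change 0.18, SE 0.33, adjusted p = 0.678). Trim71, a let-7 target that acts beside Lin28a, was at 218 and 92.5 CPM against 166 to 345 CPM, so only the RA 72 h library lay below the range, and it was not called (log2 fold change -0.85, adjusted p = 0.0405). Tcf7l1 (Tcf3), the repressor at the end of the Wnt pathway, was at 80.7 and 192 CPM against 88.8 to 124 CPM, on opposite sides of the range. Sall4, a zinc finger partner of Pou5f1, was at 158 and 165 CPM against 266 to 376 CPM and was called lower (log2 fold change -1.05, SE 0.20, adjusted p = 0.000599). Of the list, Lin28a, Trim71 and Tcf7l1 were not called.

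Genes of the primed or formative state, which follows the naive one in the epiblast, did not rise as a group. Of 14 tested, 3 were called higher and 9 lower. Fgf5, the usual marker of the formative epiblast, had 112 counts in the RA libraries together and 1 count in all undifferentiated libraries. Sox4 was at 674 and 1254 CPM against 19.4 to 38.1 CPM, and Sox3 at 3.47 and 31.9 CPM against 1.017 to 5.31. Otx2, a formative and anterior neural factor, had no count in either RA library against 3.51 to 9.15 CPM, and was at least 41.5-fold lower. Lefty2 and Nodal, a feedback inhibitor and the ligand of the same pathway, fell from 283 to 828.7 CPM to 1.33 and 3.62 CPM and from 64.8 to 124 CPM to 8.96 and 4.61 CPM.

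RA response genes were higher in the RA-treated cells of the mutant line. Of 34 listed genes 30 were tested, 23 were called higher against 22.9% of all genes, 3 were called lower, and the median log2 fold change was 3.86. The enzymes that degrade RA had the largest changes of the list. Cyp26a1 was at 238 CPM in the RA 24 h library and 433 CPM in the RA 72 h library, and at 0, 0.0449 and 0.246 CPM in the lowest, median and highest undifferentiated library, and its log2 fold change of 11.80 had an SE of 0.38 (adjusted p = 5.65e-10). Cyp26b1 was at 155 and 569 CPM against 0 to 0.314 CPM (log2 fold change 11.31, SE 0.46, adjusted p = 2.32e-09). Both were nearly silent in ESCs and high in both RA libraries. Cyp26c1, the third enzyme of the family, had 90 counts in the RA libraries and 2 in the undifferentiated ones.

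The promoter of Cyp26a1 is shown since it carries a retinoic acid response element, a direct repeat to which RA receptors bind as pairs with RXR, and since this gene had the largest rise of the list. The 300 bases of RefSeq (GRCm38.p6, plus strand, chr19:37697558-37697857) run from 250 bases before the start site, and capitals mark both units of a repeat of AGTTCA with 5 bases between them, found on the minus strand, whose first base lies 32 bases before the start site.
Cyp26a1: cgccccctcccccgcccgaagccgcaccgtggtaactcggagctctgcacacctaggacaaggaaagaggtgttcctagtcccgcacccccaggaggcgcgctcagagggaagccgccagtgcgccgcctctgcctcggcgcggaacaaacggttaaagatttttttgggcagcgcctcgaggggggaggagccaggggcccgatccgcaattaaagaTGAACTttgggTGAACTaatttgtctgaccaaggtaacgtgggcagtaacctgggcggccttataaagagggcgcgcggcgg
The letters searched were direct repeats of AGGTCA or AGTTCA with 5 or 2 bases between, on both strands and in the same length before each gene. Of 27025 genes with a promoter in the table, 13 (0.0481%) held the repeat with 5 bases and 12 (0.0444%) the one with 2. Of the listed RA response genes, 24 were in that table and 1, Cyp26a1, held a repeat, as did 0 of 22 Hox genes. A match is a description of the letters and no measurement of binding.

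Genes for proteins that carry retinoids, and Rdh10, Dhrs3 and Aldh1a2 among the enzymes of RA metabolism, were also called higher. Crabp2, which brings RA to its receptors, was at 118 and 147 CPM against 1.62 to 5.08 CPM (median 2.88), and it was called higher (log2 fold change 5.50, adjusted p = 7.24e-09). Its relative Crabp1 was at 28.4 and 35.9 CPM against 5.42 to 14.1. Stra6, the receptor that takes up retinol, was at 104.5 and 41.2 CPM against 0 to 0.629. Rdh10 and Dhrs3 act in opposite directions between retinol and retinaldehyde. Rdh10 was at 89.3 and 147 CPM against 3.56 to 6.27 CPM, and Dhrs3 was at 85.3 and 49.4 CPM against 0.86 to 4.43. Aldh1a2, which makes RA from retinaldehyde, was at 18.96 and 14.5 CPM against 2.03 to 5.48. Of these genes every RA library lay above every undifferentiated library. Aldh1a3, a second RA-making enzyme, was at 1.19 CPM and none against 0.508 to 1.62 CPM and was not called (log2 fold change -0.33, adjusted p = 0.681).

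Among the receptors the changes were small or uneven. Rxra, the common partner receptor, was at 56.0 and 42.8 CPM against 15.2 to 21.0 CPM and was called higher (log2 fold change 1.39). Rara was at 62.7 and 18.4 CPM against 49.4 to 81.2 and was not called. Rarg was at 51.9 and 9.55 CPM against 50.7 to 111, and was called lower (log2 fold change -1.22, adjusted p = 0.0478) with only the RA 72 h library below the range. Rarb, the receptor gene that RA itself induces, had too few counts for the test, with 395 counts in the RA 24 h library, 3 in the RA 72 h library and 6 in all undifferentiated libraries.

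The homeobox cofactors and orphan nuclear receptors named here were also higher in both RA libraries. Meis1, a Hox cofactor, was at 186 and 122 CPM against 0.231 to 0.95 CPM (log2 fold change 8.15, SE 0.31, adjusted p = 1.71e-09), and Meis2 at 343 and 492 CPM against 5.95 to 17.1. Nr2f1 and Nr2f2, the COUP-TF orphan receptors, were at 78.8 and 421 CPM against 0.339 to 2.37 and at 217 and 420 CPM against 0 to 2.61. Tshz1 and Zfp503 were called higher, with log2 fold changes of 6.17 and 7.70, as was Zfp703, which lies on chromosome 8, where that chromosome was kept (6.41). The genes called lower were Cdx1, Rarg and Gbx2. Cdx1, a posterior homeobox gene that is an RA target in embryos, was at 3.34 and 2.63 CPM against 33.7 to 76.7 CPM, and Gbx2, a hindbrain homeobox gene that LIF also maintains in ESCs, was at 2.38 and 6.91 CPM against 6.29 to 17.5. The summed level of the 30 genes was 3090 and 4610 CPM against 318 to 368 CPM.

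Hox genes were higher after RA in all 4 clusters, mostly in their 3′ and central parts. Of 39 listed genes 31 were tested, and 1 had no match in the tables. Of those tested 25 were called higher and 2 lower, with a median log2 fold change of 4.80. Where at least 10 counts were asked of every library, 2 Hox genes were called higher. Genes without counts in undifferentiated cells cannot pass that filter. Hoxa5 was at 117 and 329 CPM against 0.127 to 0.656 CPM (log2 fold change 9.07, SE 0.37). Hoxb1, which marks hindbrain rhombomere identity, was at 23.4 and 45.8 CPM against 0 to 0.246. These genes had almost no reads in undifferentiated cells, and their RA libraries did not overlap with those.

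Of the Hoxb genes, 3 had no count in any undifferentiated library. Hoxb5 was at 33.7 and 107 CPM after RA and at least 889-fold higher, Hoxb6 was at 23.1 and 44.1 CPM and at least 535-fold higher, and Hoxb3 was at 16.9 and 16.1 CPM and at least 350-fold higher. Hoxb8 had 1170 counts after RA and 3 before. In the Hoxc cluster, Hoxc4 was at 38.7 and 131 CPM against 2.37 to 6.71, Hoxc8 at 41.5 and 81.3 CPM against 0 to 0.594, and Hoxc9 at 29.6 and 120 CPM against 0.38 to 0.95. In the Hoxd cluster, Hoxd1 was at 13.6 and 3.95 CPM against 0.157 to 1.47, and Hoxd8 at 14.4 and 15.8 CPM against 0.492 to 3.92.

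The 5′ ends of the clusters, which are used in the most posterior body, did not rise in the same way. Hoxc12 was at 0.18 CPM and none against 3.12 to 7.72 CPM and Hoxc13 at 7.81 and 6.26 CPM against 10.5 to 19.4 CPM, and both were called lower. Hoxb13, Hoxc11, Hoxd9 and Hoxd13 were not called. Hoxa6, Hoxa11, Hoxa13, Hoxd3, Hoxd10, Hoxd11 and Hoxd12 had too few counts, with at most 40 in either RA library. Some genes differed between the RA libraries, since Hoxa3 was at 33.4 CPM at 24 h and 1.65 CPM at 72 h and Hoxa4 at 20.01 and 2.63 CPM, while their neighbour Hoxa5 was higher at 72 h. The summed level of the 31 genes was 810 and 1330 CPM against 40.8 to 72.9.

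**Figure D2:**
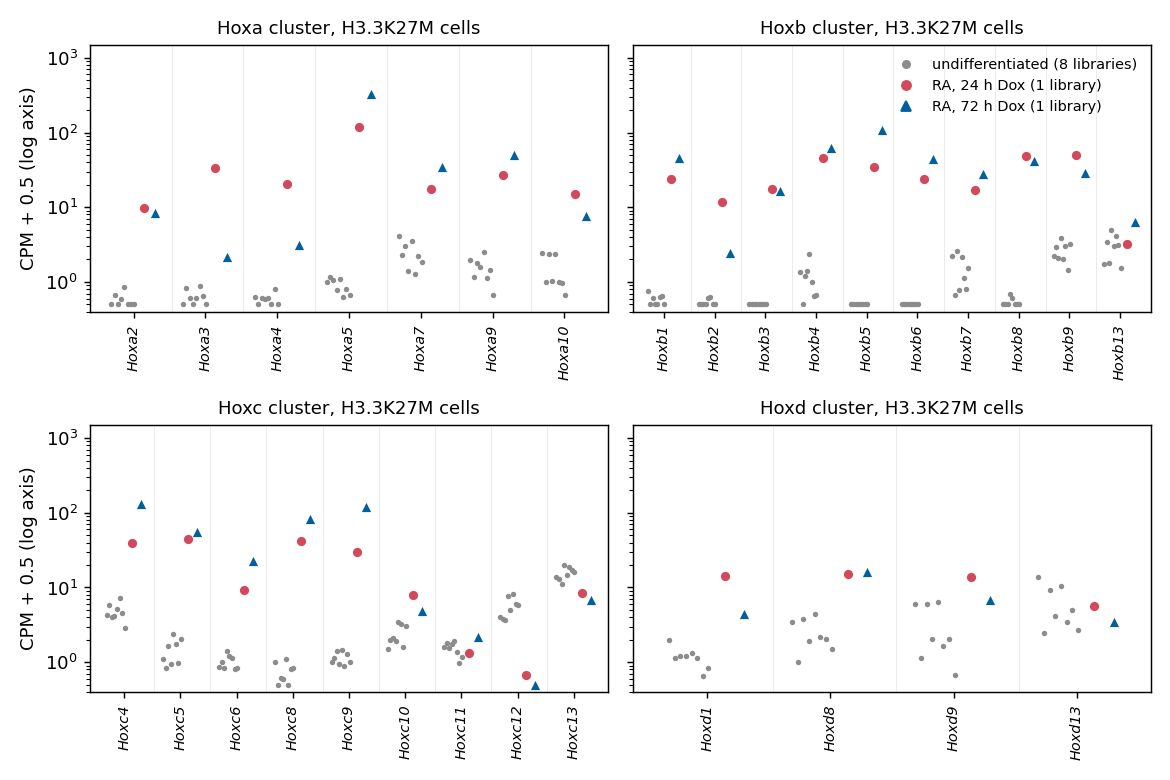
CPM + 0.5 (log axis) of the Hox genes reported in H3.3K27M cells, by cluster and in the order of their numbers, with the 8 undifferentiated libraries in grey and the RA 24 h and RA 72 h libraries as a red circle and a blue triangle. The RA points lie above the grey points for most genes from Hoxa2 to Hoxa10, Hoxb1 to Hoxb9 and Hoxc4 to Hoxc10, and below them for Hoxc12 and Hoxc13.

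The labels call the RA-treated cells neural progenitor cells derived from ESCs, which the marker genes met in part. Of 37 listed neural progenitor genes 21 were tested, 13 were called higher and 3 lower, and 12 more had too few counts to test. Pax6, a regulator of neural progenitors, was at 30.2 and 40.8 CPM against 0, 1.04 and 4.18 CPM (log2 fold change 4.74, SE 0.73, adjusted p = 0.000134). Sox11 was at 284 and 610 CPM against 10.8 to 28.2, Msx1 at 77.4 and 172 CPM against 0 to 1.84, and Zic1 at 31.4 and 22.4 CPM against 0 to 0.314. Cdh2 (N-cadherin) was at 249 and 48.1 CPM against 1.71 to 6.61, and Nes, the intermediate filament of neural progenitors, was at 411 and 63.2 CPM against 39.3 to 86.9, so its RA 72 h library lay within the undifferentiated range.

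Several defining genes of the labelled cell type were near 0. Neurog1 had 16 and 5 counts in the RA libraries, Neurog2 had 6 and 2, Hes5 had 5 and 3, and Fabp7 had 4 and none. Sox1 and Pou3f2 were not matched. Olig2 and Olig1, which specify the oligodendrocyte lineage, were at 0.14 and 0.33 CPM against 11.2 to 33.2 and at 0.46 CPM and none against 8.47 to 15.9, and both were called lower.

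Neuron genes were mixed, with 7 called higher and 6 lower of 20 tested and a median log2 fold change of 0.25. Dcx, the microtubule protein of young migrating neurons, had no count in undifferentiated cells and was at 11.7 and 8.23 CPM after RA, at least 235-fold higher. Dpysl3 was at 455 and 221 CPM against 54.6 to 121, and Gap43, a protein of growing axons, at 25.2 and 36.5 CPM against 4.27 to 13.0. On the other side, Stmn2 was at 3.66 and 7.57 CPM against 189 to 477 CPM (log2 fold change -5.79, adjusted p = 8.18e-07), and Mapt (tau) at 9.503 and 6.26 CPM against 35.0 to 55.2. Tubb3, on chromosome 8, was lower where that chromosome was kept (log2 fold change -2.52).

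Markers of other cell types rose as well, and their levels are given beside the neural genes since the RA libraries hold them all. Of 24 extraembryonic endoderm genes tested, 20 were called higher and 1 lower, with a median log2 fold change of 4.78, and their summed level was 6000 and 6220 CPM against 1640 to 2210 CPM. Gata6, the factor that starts primitive endoderm, was at 76.3 and 122 CPM against 0, 0.272 and 0.809 CPM (log2 fold change 8.00, SE 0.42, adjusted p = 1.08e-08). Sox17 was at 46.3 and 103 CPM against 0.169 to 1.16, Foxa2 at 18.6 and 109 CPM against 0 to 0.36, and Pth1r, a receptor of parietal endoderm, at 76.4 and 329 CPM against 0 to 0.47. Lamb1 and Sparc, of the basement membrane that parietal endoderm lays down, were at 766 and 806 CPM against 26.3 to 66.1 and at 1180 and 2024 CPM against 340 to 499. Genes of visceral endoderm were not alike. Cubn was at 48.7 and 24.4 CPM against 0.253 to 0.847, while Apoe was lower (143 and 38.5 CPM against 429 to 641), Hnf4a was at 1.42 and 1.65 CPM against 1.66 to 4.10, and Afp had 6 and 7 counts.

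Of 13 trophoblast genes 8 were called higher and 3 lower. The keratins Krt8 and Krt18 were at 814 and 166 CPM against 16.4 to 38.1 and at 1032 and 516 CPM against 9.09 to 16.6, and Gata3 was at 55.4 and 99.4 CPM against 0.169 to 1.66. Cdx2, which defines the lineage, was at 1.23 and 0.33 CPM and not called, Elf5 had 2 counts and none, and Tpbpa and Prl3d1 had none. Fibroblast genes were called higher in 12 of 14 cases, with Col3a1 at 285 and 60.9 CPM against 0 to 0.475 and Acta2 (smooth muscle actin) at 423 and 252 CPM against 0 to 0.712. Of 14 neural crest genes 10 were called higher and 3 lower, the former including Sox9 at 50.1 and 108 CPM against 0 to 0.507, while Sox10 had 40 counts and none, and Foxd3, Erbb3 and Ngfr were the genes called lower. Of 12 mesoderm genes 4 were called in each direction, with Twist1 higher and T and Eomes lower. The part of these other cell types in the changes of the RA libraries was not tested.

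Imprinted genes, of which 1 parental copy is active, were mostly higher after RA. Of 22 tested 17 were called higher and none lower, with a median log2 fold change of 2.69, and without the RA 24 h library 3 were called lower. H19 was at 776 and 1088 CPM against 1.25, 1.91 and 2.54 CPM (log2 fold change 8.85, SE 0.23, adjusted p = 5.76e-11). Dlk1 was at 181 and 727 CPM against 1.19 to 2.98, and its neighbour Meg3 at 654 and 2688 CPM against 132 to 235. Peg10, a retrotransposon-derived gene of the placenta, was at 8539 CPM at 24 h and 336 CPM at 72 h, against 29.6 to 63.8. Igf2 was left out for low counts, with 571 counts at 24 h and 1 at 72 h. Of 19 germline genes 5 were called higher (26.3%), among them Ddx4, and 4 lower (21.1%), among them Dazl, near the shares over all genes.

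**Figure D3:**
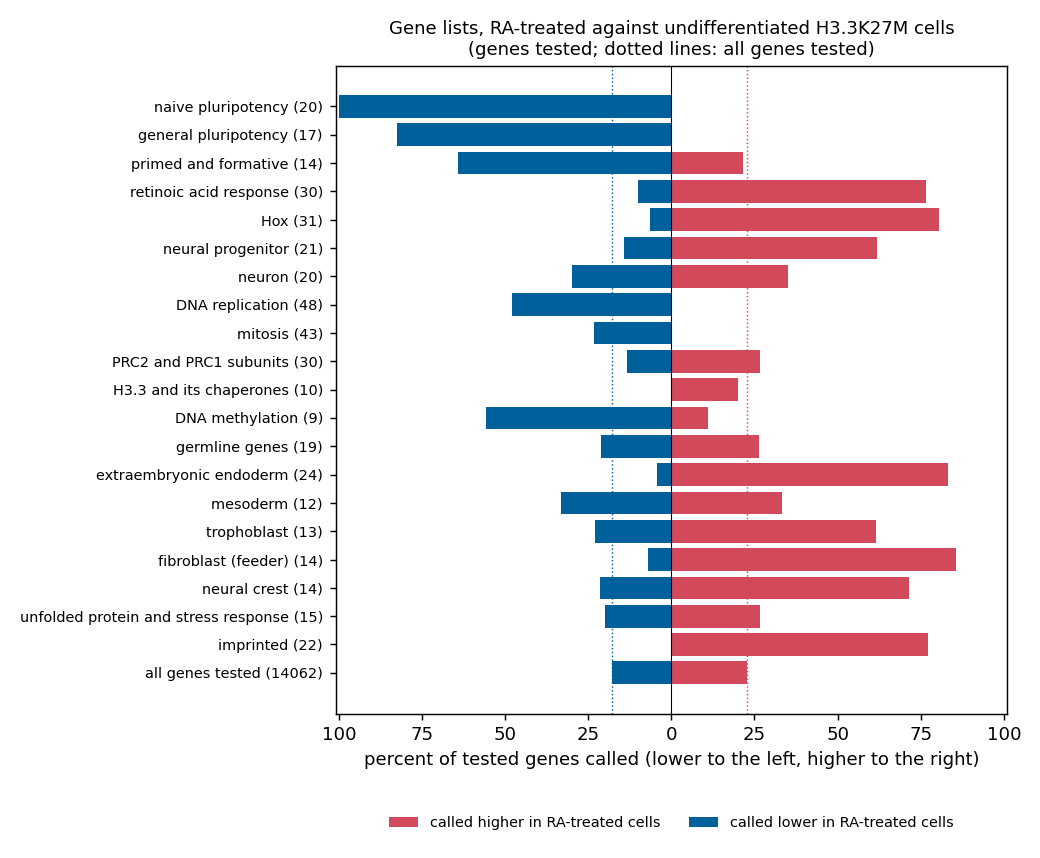
Percent of the tested genes of each list called higher or lower in RA-treated H3.3K27M cells. The dotted lines mark the shares over all 14062 genes, 22.9% higher and 18.0% lower. The lists were chosen with earlier results of these data known, so the bars are a description and no independent test. The naive pluripotency list reaches 100% lower, Hox 80.6% higher and extraembryonic endoderm 83.3% higher.

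Genes of DNA replication and of mitosis had calls in the lower direction alone. Of 48 replication genes 23 were called lower (47.9%, against 18.0% of all genes) and none higher (median log2 fold change -0.99). Among the former, Mcm10 was at 63.8 and 68.5 CPM against 178 to 238 and Rrm2 at 208 and 151 CPM against 468 to 544. Of 43 mitosis genes 10 were called lower (23.3%, near the 18.0% over all genes) and none higher (median log2 fold change -0.59). Both RA libraries lay below all undifferentiated ones for 22 of the 43, against 23.6% of all genes. Ccnb2, a mitotic cyclin called lower, was at 63.5 and 53.3 CPM against 171 to 206. The mitosis counts rested on the RA 24 h library, and without it 7 were called higher and 18 lower. Birc5 (survivin) was at 74.9 CPM at 24 h and 626 CPM at 72 h against 133 to 215, and Kif20a was at 166 and 3.95 CPM against 220 to 281.

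Of 30 Polycomb genes tested 8 were called higher (26.7%) and 4 lower (13.3%), near the shares over all genes, and without the RA 24 h library 9 were called in each direction. Ezh2, the PRC2 methyltransferase, was at 169 and 194 CPM against 246 to 319 CPM, below every undifferentiated library but not called (log2 fold change -0.62). Suz12, the scaffold of PRC2, was at 150 and 82.3 CPM against 331 to 498 (log2 fold change -1.76, SE 0.27, adjusted p = 0.000123), and its partner Mtf2 at 144 and 126 CPM against 329 to 423. In PRC1, Phc1 and Pcgf6 were lower, while Bmi1 was at 75.5 and 63.5 CPM against 14.2 to 26.4, Phc2 at 151 and 119 CPM against 17.9 to 36.4, and Cbx2, Cbx8, Pcgf5, Phc3 and Yaf2 were also called higher. Of 9 DNA methylation genes 5 were lower and 1 higher. Tet1 was at 75.3 and 32.6 CPM against 272 to 545 and Uhrf1, the recruiter of Dnmt1, at 230 and 97.5 CPM against 658 to 920, while Tet3 was at 134 and 47.7 CPM against 4.40 to 10.8. Of 15 stress response genes 4 were called higher (26.7%), among them the p53 target Mdm2, and 3 lower (20%), among them Asns, also near the shares over all genes.

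Outside these lists, the largest rises included Stmn4 and Fat4, at least 444-fold and 825-fold higher. The largest falls included Spic, Crxos1, Pramel6, Slc15a1 and Oas1a, which had no count in RA-treated cells and were at least 233-fold, 185-fold, 138-fold, 124-fold and 104-fold lower. The gene ENSMUSG00000095834.2, which has no symbol in the annotation used, was at least 212-fold lower. Of the most abundant genes called lower, Npm1, a nucleolar chaperone of ribosome assembly, was at 1609 and 1593 CPM against 3630 to 6880, and Hsp90aa1 at 1182 and 1651 CPM against 2660 to 3870.

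The RA libraries did not always move together. Of 14062 genes, 2505 were within 2-fold of the undifferentiated mean at 24 h and below 0.5 times it at 72 h, while 482 were below it at 24 h alone. Above 2-fold, 1202 genes were so at 72 h alone and 836 at 24 h alone, and 83 and 176 genes were past 2-fold in opposite directions. Named genes that lost their reads at 72 h include Rybp, a PRC1 subunit at 53.0 CPM and none against 51.1 to 132, and Notch1 at 49.0 and 0.66 CPM against 28.1 to 94.6. Without the RA 24 h library 3949 genes were called lower in place of 2528. With 1 library of this line at each time, these differences have no replicate check within the line.

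**Figure D4:**
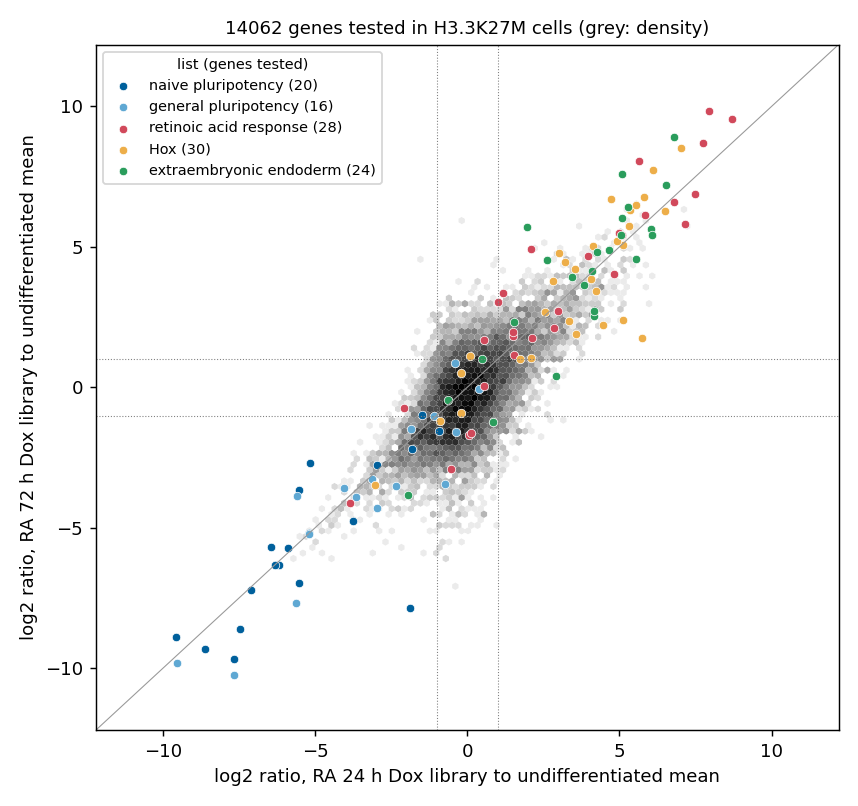
Log2 ratio of CPM + 0.5 to the mean of the 8 undifferentiated H3.3K27M libraries, for the RA 24 h library (x axis) and the RA 72 h library (y axis), for 14062 genes. Colours mark members of 5 lists. Naive and general pluripotency genes lie at the lower left and RA response, Hox and extraembryonic endoderm genes at the upper right, with medians such as -5.51 and -5.70 for the naive genes.

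Whether the RA response of the H3.3K27M line differed from that of WT-H3.3 was tested as an interaction in 20 libraries of both lines. No gene of 15214 was called with edgeR (0%), with 338 genes at an unadjusted p under 0.05, and none was called with a term for the 72 h time shared by the lines, with 598 at an unadjusted p under 0.05. DESeq2 called 1 gene, Sox2, with 331 at an unadjusted p under 0.05. Each of these counts was below the share of 0.05 that chance alone would give. Without the shared term the 24 h and 72 h libraries stood as replicates. The dispersion of the edgeR fit, its spread among libraries, was then 0.0998, and 0.0483 with the term. In simulated counts of the same 2 lines, the edgeR interaction test called 1.49% of 2-fold, 44.8% of 4-fold and 93.9% of 8-fold differences. Smaller differences could thus go uncalled. The changed genes of the simulation had higher mean counts, and no RA response common to both lines was simulated. These shares therefore do not hold for genes with almost no counts after RA, such as Nanog. Each line was compared with its own undifferentiated libraries, and in WT-H3.3 cells 22.1% of genes were called higher and 19.9% lower. Of the genes called higher in H3.3K27M cells 84.3% were called higher in WT-H3.3 cells (83.5% of the WT-H3.3 genes), and of those called lower 84.8% were shared (73.3% of the WT-H3.3 genes).

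Sox2 had the lowest p-value of that comparison. On the scale of the 3 lines, it was at 33.3 and 27.4 CPM in the RA 24 h and 72 h libraries of H3.3K27M cells and at 10.1 and 11.3 CPM in those of WT-H3.3 cells, from 369 to 550 CPM and 371 to 495 CPM in undifferentiated cells. Both mutant RA libraries thus lay above both WT-H3.3 ones, and the undifferentiated ranges overlapped. The difference of the log2 fold changes was 1.5 (SE 0.27), with an unadjusted p of 1.48e-05 and an adjusted p of 0.226 in edgeR, 0.106 with the shared 72 h term and 0.00864 in DESeq2. Over all settings the difference ran from 1.32 to 1.65 and its adjusted p from 0.00864 to 1. In H3.3K27L cells Sox2 was at 23.0 and 23.4 CPM after RA, between the other lines, and the difference from H3.3K27M was 0.65 (SE 0.26, adjusted p = 0.492).

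No other pluripotency gene was called against WT-H3.3, which does not show that the lines were alike. Nanog was at 1.23 and 2.29 CPM after RA in the mutant and at 1.19 and 1.80 CPM with WT-H3.3, and Pou5f1 was at 2.45 CPM and none and at 2.78 CPM and none. Lin28a, which stayed on in the mutant, was at 309 and 179 CPM after RA in WT-H3.3 cells against 186 to 318 CPM before, and at 360 and 276 CPM in H3.3K27L cells. Klf4 differed by -0.82 (SE 0.39) and Tfcp2l1 by -0.87 (SE 0.55), both with an adjusted p of 1. The median difference from WT-H3.3 over the 20 naive genes was 0.03, and over the 17 general ones 0.19, against 0.06 over all genes. It was 0.19 over 31 RA response genes, 0.78 over 31 Hox genes and -0.43 over 26 extraembryonic endoderm genes, with no gene of any list called. Hoxa5 was at 116 and 326 CPM after RA in the mutant, 62.5 and 268 CPM with WT-H3.3 and 28.4 and 100 CPM in H3.3K27L cells, and these differences were not called (adjusted p = 1 and 0.648).

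Against H3.3K27L, 28 of 14703 genes were called (0.190%), 5 with a larger (0.0340%) and 23 with a smaller log2 fold change in H3.3K27M cells (0.156%). With the shared 72 h term 240 (1.63%) were called, 74 (0.503%) and 166 (1.13%) in these directions. With only Dox-matched libraries and the Dox time as a block, 0 genes were called by edgeR (561 at an unadjusted p under 0.05), so every call here and among the endoderm genes below was lost. In undifferentiated H3.3K27L cells, chromosome 8 held 4.10%, 4.09%, 4.12% and 3.47% of counts in replicate 2 at 4, 8, 24 and 72 h. It held 5.69% to 5.93% in replicate 1 and 5.78% to 6.09% in undifferentiated H3.3K27M cells. In the RA 24 h and 72 h libraries it held 8.04% and 6.16% for H3.3K27L, and 6.59% and 6.08% for H3.3K27M. For WT-H3.3 these were 7.14% and 5.97%. Whether these differences between libraries entered the calls was not tested. Lgmn (legumain), a lysosomal protease, was at 121 and 119 CPM after RA in H3.3K27M cells, 858 and 437 CPM in H3.3K27L cells and 428 and 167 CPM in WT-H3.3 cells, from 54.7 to 76.0, 29.4 to 56.3 and 41.0 to 72.4 CPM. The difference from H3.3K27L was -3.01 (SE 0.33, adjusted p = 7.97e-05). Toward WT-H3.3 it was -1.48, with an unadjusted p of 0.000382 and an adjusted p of 1. The H3.3K27M libraries were the lowest of the 3 lines at both times, and those of H3.3K27L the highest.

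Several of the genes lower than in H3.3K27L belong to extraembryonic endoderm. Of 27 such genes in the comparison, 5 (Dab2, Sparc, Cubn, Srgn and P4ha1) were called lower and none higher, against 0.156% lower of all genes. With the shared 72 h term 11 were called lower, against 1.13% of all genes. The list was chosen with earlier results of these data known, so these counts are a description and no independent test. Their median difference was -1.91. Sparc was at 1170 and 2010 CPM in H3.3K27M, 5660 and 6590 CPM in H3.3K27L and 2200 and 3370 CPM in WT-H3.3 cells after RA. Dab2, an adaptor of endocytosis, was at 110 and 211 CPM, 504 and 504 CPM and 290 and 203 CPM in the same order. In these 2 genes the H3.3K27L libraries lay above the others at both times.

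The genes with a larger log2 fold change in H3.3K27M than in H3.3K27L were Dbn1, Ptrf, Hspb8, Etv6 and Lgals1. Hspb8 did not rise in the mutant (94.3 and 111 CPM after RA against 63.3 to 116) and was lower in H3.3K27L (31.5 and 28.9 CPM against 58.9 to 124). Dbn1 (drebrin), an actin-binding protein of neurons, was at 301 and 135 CPM against 123 and 71.8 CPM after RA, with a difference of 2.50 (SE 0.46, adjusted p = 0.0186). Its undifferentiated median also differed, with 3.55 CPM for the K27M line and 8.85 CPM for the K27L line, and enters this difference. Etv6 was at 205 and 188 CPM against 59.5 and 66.1 CPM, and at 157 and 237 CPM in WT-H3.3 cells. Meis1 was called with the shared 72 h term (difference 2.30, adjusted p = 0.00292) and not without it (2.25, adjusted p = 0.0511). Klf4 was at 50.8 and 58.2 CPM in H3.3K27M and at 208 and 207 CPM in H3.3K27L cells after RA, a difference of -1.51 that was called only with the shared term (adjusted p = 0.0778 without and 0.0174 with it). Of the H3.3K27L libraries 1 of the undifferentiated 72 h libraries held 68378 counts, and without it 37 genes were called. The count fell to 1, Lgmn, without the RA 24 h library of H3.3K27M and rose to 119 without that of H3.3K27L, so it rests on single RA libraries.

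**Figure D5:**
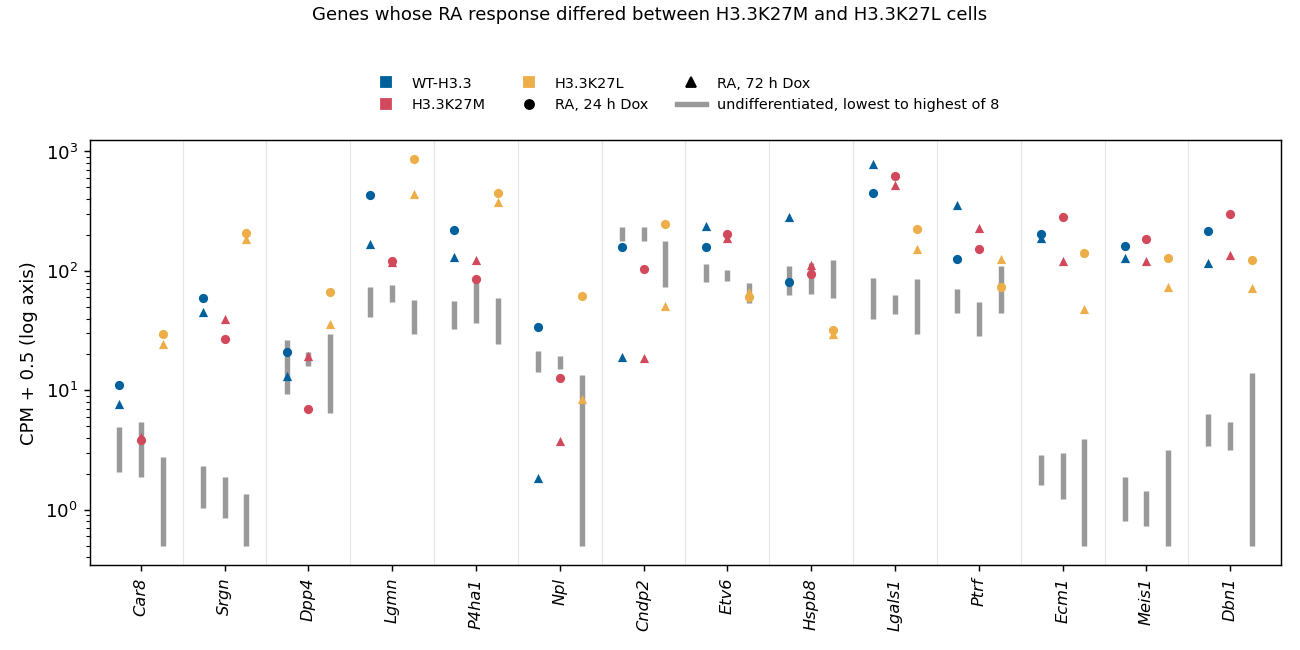
CPM + 0.5 (log axis) of 14 genes whose RA response was called different between H3.3K27M and H3.3K27L cells, with blue for WT-H3.3, red for the K27M line and yellow for the K27L line. Ecm1, Meis1, Cndp2 and Npl were called only with the shared 72 h term. Circles are the RA 24 h libraries, triangles the RA 72 h libraries, and grey bars span the 8 undifferentiated libraries of each line. For Lgmn, Srgn, Car8 and P4ha1 the RA points of H3.3K27L lie highest and those of H3.3K27M lowest.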

How the data were processed

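The authors aligned single-end reads to mm9 with STAR 2.7.1 and up to 10 mismatches (the counting tool is not given in the sources used here) and deposited whole-number counts per gene, not normalized, for undifferentiated and RA-treated cells in separate tables that share their 55471 genes. Nothing was aligned again. Of these genes 32589, with 98.1% of the counts, were matched to the GENCODE annotation of NCBIM37 (mm9), and 496 of the 504 genes in 20 hand-written lists were matched. As in the study, the genes of chromosome 8 (2532, of which 1435 by annotation and the rest by the order of the tables) were left out, and RA libraries of both Dox times were pooled. Totals ran from 3105371 to 22269533 counts in the 10 libraries. Genes at low counts, or listed at 0, are limited by counting error, and folds against a group without counts used a floor of 3 counts over the group.

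The deposited counts went into edgeR 4.0.16 (quasi-likelihood F test after TMM and filterByExpr, a mean for each state), and interactions with a mean for each line and state, with Benjamini-Hochberg adjustment over all genes tested. CPM in comparisons of lines were scaled over 30 libraries and differ slightly from those of the line alone. Ratios by library used CPM + 0.5. Counts were simulated at a dispersion of 0.1 with 200 changed genes, drawn only from genes of higher mean count. In these, the RA comparison of H3.3K27M recovered 94% of 4-fold and 10.4% of 2-fold changes among 13876 genes, while the interaction with WT-H3.3 used 14364 genes. The alternatives changed the tool (DESeq2 1.42.0), the normalization, the filter, the fold threshold, chromosome 8, the Dox-matched libraries, the means per time, the replicate block, gene length offsets, thinning to the RA 72 h total and a shared 72 h term, and left out each library. The tools were pandas 2.3.3, NumPy 2.4.6 and Matplotlib 3.10.9 under Python 3.11.15, and R 4.3.3.

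Per the methods, replicates were made weeks apart, and no 2 libraries of the line were copies (chi-square of at least 4.47 per gene). Replicate numbers pair H3.3K27M with WT-H3.3 cells, since the deviations of same-numbered libraries correlated at 0.593, 0.698, 0.586 and 0.673 over 8877 genes at the 4 times, but not with H3.3K27L cells (-0.438, -0.429, -0.41 and 0.173).

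Genes named are list members, the 12 genes of the largest change in each direction among called genes with at least 10 CPM and libraries that did not overlap, the 6 most abundant genes called lower, the 5 called interaction genes of the lowest adjusted p in each direction (with and without the shared 72 h term), and Sox2, Nanog, H3f3a and H3f3b. The members and lists were chosen with earlier results of these data known. Some genes of the lists count in the totals but are not reported here by name.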

Additional observations from a re-analysis of the deposited data

Results flagged for a closer look

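Of 87 measures tested, 7 had 1 undifferentiated H3.3K27M library far from the others by Dixon's test, where chance flags about 1 in 20. The 72 h replicate 2 library was set apart in 4 of them, with 9348 CPM of mt-Nd1, 4043 CPM of Pabpc1, 166 CPM of Trim71 and 10.3 CPM of Ncoa7. The others were Spp1 at 626 CPM in 72 h replicate 1, Tbx3 at 353 CPM in 4 h replicate 2 and Tcl1 at 90.6 CPM in 8 h replicate 1. Both RA libraries lay outside the undifferentiated range for 6 of these genes, and for Trim71 the RA 24 h library lay inside it.

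The RA response was called different between H3.3K27M and H3.3K27L for 28 genes by the interaction test of edgeR with Benjamini-Hochberg adjustment. That count depended on the setting, with 0 for Dox-matched libraries blocked by time and 127 by DESeq2. The differences of log2 fold changes, without and with a shared 72 h term, were 2.50 and 2.45 for Dbn1, 1.97 and 2.01 for Ptrf, 1.71 and 1.74 for Lgals1, -3.01 and -2.94 for Lgmn, -4.17 and -4.19 for Car8 and -3.20 and -3.21 for Srgn. Those named without the term were 1.64 for Hspb8, 1.26 for Etv6, -2.65 for P4ha1 and -3.02 for Dpp4. Those named with it were 2.03 for Ecm1, 2.30 for Meis1, -1.90 for Cndp2 and -2.60 for Npl, which were not called without it and are not among the 28.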

How the results depend on the processing

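The counts of genes called in RA-treated against undifferentiated H3.3K27M cells stayed within 1.5 times of 3225 higher and 2528 lower except where at least 10 counts were asked of every library (1717 and 1069, with 9212 genes tested), where the threshold was 4-fold (1806 and 1372), and for lower genes without the RA 24 h library (3949). Leaving out each library gave 3126 to 3433 higher and 2420 to 3949 lower. The calls were 56.1% higher in direction, 45.1% without the RA 24 h library and 47.4% with a mean for each line, state and Dox time (2961 higher and 3285 lower). With at least 10 counts asked of every library, 7 naive pluripotency genes were called lower. Members called higher were then 2 for Hox, 1 for neural crest, 0 for mesoderm, 13 for RA response and 7 for extraembryonic endoderm. With the replicate number as a block, 3159 were higher and 2518 lower. In that setting 0 differed from WT-H3.3 (424 at an unadjusted p under 0.05) and 32 from H3.3K27L. The pairing thus moved none of these counts by over 1.5 times. Against WT-H3.3, 1 gene was called by DESeq2 and 0 to 1 where libraries were left out (Sox2 without 72 h replicate 2 of undifferentiated H3.3K27M, Lgmn without the RA 72 h library of WT-H3.3).

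The 28 genes against H3.3K27L were 127 by DESeq2, 140 without a filter, 8 at 10 counts or more in every library, 18 at 4-fold, 0 with Dox-matched libraries blocked by time (561 at an unadjusted p under 0.05), 74 with a mean for each time, 16 after thinning and 240 with the shared 72 h term. Leaving out a library gave 1 to 119. The count moved by over 1.5 times without the RA libraries of H3.3K27M at 24 h (1) and 72 h (80), those of H3.3K27L at 24 h (119) and 72 h (51), undifferentiated H3.3K27L at 4 h replicate 2 (17) and 8 h replicates 1 (16) and 2 (17), and undifferentiated H3.3K27M at 8 h replicate 1 (16) and 24 h replicate 1 (18). The cause was not tested.

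Of the log2 fold changes of named genes under the alternatives, 2683 kept direction and call, 80 lost and 23 gained a call, and 8 turned direction, none of them called. These were Hoxc11 (-0.08 without a filter, -0.05 without 72 h replicate 1 and -0.34 without the RA 72 h library), Lin28a (-0.05 with the replicate block and -0.08 without the RA 24 h library), and without the RA 72 h library Tcf7l1 (-0.40), Rara (0.04) and Aldh1a3 (0.15). Leaving out each library in turn, the ranges were -0.34 to 0.64 for Hoxc11, -0.08 to 0.38 for Lin28a, -0.40 to 0.84 for Tcf7l1, -1.73 to 0.04 for Rara and -5.98 to 0.15 for Aldh1a3. The RA 72 h library, with 3105371 counts, sets the depth at which low genes can be seen, and each RA time has 1 library, so a difference between times was not tested.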
